A study of Homo sapiens with 2 samples.

Results

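The genes of the nuclear pore and its transport receptors comprised 51 of 19719 protein-coding genes with a known strand, and their promoters were searched for peaks of PRMT6 and PARP1. They were 27 pore genes, 23 receptor genes and RAN. Members were defined by symbol: NUP, IPO, XPO, TNPO, KPNA or KPNB followed by a digit, plus RAN, RANBP2, TPR, AAAS and SEH1L. The set was put forward with its promoter peaks already known and is thus also selected on these values, so its counts are a description and no test was made on them.

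Traffic between the nucleus and the cytoplasm passes through nuclear pore complexes. Each complex is built from nucleoporins, which form the outer rings, the inner ring, the central channel, the cytoplasmic filaments and the nuclear basket. Karyopherins (importins, transportins and exportins) carry cargo through the channel, and the GTPase RAN sets the direction of transport.

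The cells were MDA-MB-231, a human cell line from a triple-negative breast cancer, for which the labels name no treatment or genetic change. There was 1 library for PRMT6, an arginine methyltransferase, and 1 for PARP1, which attaches ADP-ribose to proteins. The 9080 PRMT6 peaks and 11651 PARP1 peaks are stretches with more fragments than the local background by the authors' peak caller. Read depth is not part of the lists. The promoter of a gene reached 3 kb upstream and 3 kb downstream from the 5′ end of its GRCh38 record, and any peak base in it counted. Each peak's score, the −log10 of a p-value by its range, was read as a percentile, which is the share of the peaks in its own list with a lower score. For percentiles, tied scores were counted in equal parts as lower and higher. In ranks, tied peaks all took the best rank of their group. With 1 library per antibody no value here has a replicate check, and intervals are 95% exact binomial intervals that cover counting error only.

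A PRMT6 promoter peak was found at 20 of the 51 genes, where 18.3% of all coding genes had one. A PARP1 promoter peak was found at 23 of the 51, against 22.5% of all coding genes. Both lists had a promoter peak at 15 of the 51, against 13.4%. These genes were KPNB1, NUP98, XPO1, TPR, NUP107, NUP85, NUP62, SEH1L, NUP54, RANBP2, NUP88, XPO6, KPNA3, KPNA2 and IPO13. A further 5 genes had a PRMT6 promoter peak only, 8 had a PARP1 promoter peak only, and 23 had none in either list. Of the 19719 coding genes, 963 had a PRMT6 promoter peak only, 1793 a PARP1 promoter peak only, and 14326 none. A promoter peak in either list was thus present at 54.9% of the members and 27.3% of all coding genes. Of the PRMT6 genes among the members, 75.0% also had a PARP1 peak, where the share over all coding genes was 73.2%. Of the PARP1 genes, 65.2% also had a PRMT6 peak, where the share over all coding genes was 59.5%. Every member with a promoter peak had exactly 1 per list.

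**Figure D1:**
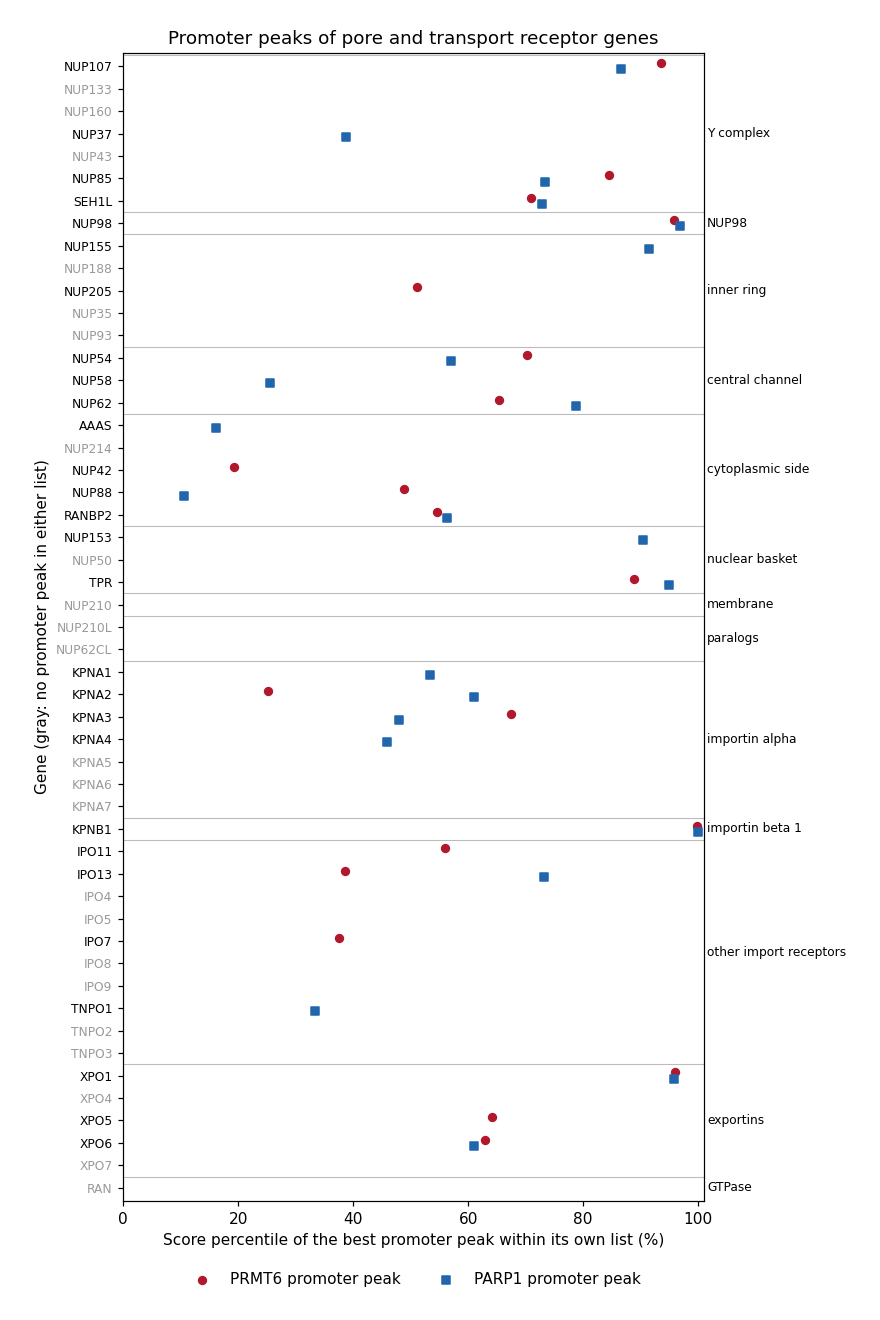
Score percentile (%) of the best promoter peak of each gene within the PRMT6 list (circles) and the PARP1 list (squares), by role of the gene product, with genes without a promoter peak in gray. KPNB1 stands at 99.8 and 99.9, while RAN and the inner ring genes NUP188, NUP35 and NUP93 have no point.

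Within the pore genes, 11 of 27 (40.7%, 22.4% to 61.2%) had a PRMT6 promoter peak, 14 (51.9%, 31.9% to 71.3%) a PARP1 promoter peak and 9 (33.3%, 16.5% to 54.0%) both. Among the receptor genes, 9 of 23 (39.1%, 19.7% to 61.5%) had a PRMT6 promoter peak, 9 (39.1%) a PARP1 promoter peak and 6 (26.1%, 10.2% to 48.4%) both. The intervals of pore and receptors overlapped in every one of these counts, and no test of their difference was made.

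The highest-scoring promoter peaks of the set lay at KPNB1, the gene of importin beta 1, which carries cargo bound by importin alpha through the pore. The PRMT6 peak (chromosome 17, 47649284 to 47649991) had a score of 33.79 and ranked 18 of 9080. The PARP1 peak (47649317 to 47649924) had a score of 39.90 and ranked 16 of 11651. The PARP1 peak lay entirely under the PRMT6 peak and covered 85.9% of it. Both peaks reached the 5′ ends of KPNB1 and of the divergent noncoding gene KPNB1-DT, 491 bp upstream.

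NUP98 encodes a precursor that is cleaved into the mobile nucleoporin NUP98 and the outer-ring protein NUP96. Its PRMT6 peak (chromosome 11, 3797535 to 3798057) had a score of 14.78 and ranked 384, and its PARP1 peak (3797518 to 3798026) had a score of 17.84 and ranked 378. XPO1 encodes the main export receptor for proteins with a leucine-rich export signal. Its PRMT6 peak (chromosome 2, 61538240 to 61538804) scored 15.05 at rank 365, and its PARP1 peak (61538190 to 61538790) scored 16.33 at rank 503. At TPR, which encodes the main filament of the nuclear basket, the PRMT6 peak (chromosome 1, 186375097 to 186375608) scored 10.36 at rank 1012 and the PARP1 peak (186375206 to 186375726) scored 15.66 at rank 592. Among the peaks at these 3 genes, that of PRMT6 at TPR had the lowest percentile, 88.8.

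The outer ring of the pore is built from the Y complex. NUP107, one of its scaffold proteins, had a PRMT6 peak (chromosome 12, 68686717 to 68687074) with a score of 12.58 at rank 590 and a PARP1 peak (68686686 to 68687019) with a score of 11.12 at rank 1553. At NUP85 the PRMT6 peak (chromosome 17, 75205139 to 75205600) scored 9.03 at rank 1396 and the PARP1 peak (75205325 to 75205629) scored 8.48 at rank 3085. At SEH1L the PRMT6 peak (chromosome 18, 12947532 to 12948309) scored 6.90 at rank 2628 and the PARP1 peak (12947913 to 12948233) scored 8.45 at rank 3148. NUP37 had a PARP1 peak only (chromosome 12, 102120274 to 102120536, score 5.78, rank 7034). NUP133, NUP160 and NUP43 had none. Promoter peaks in both lists were thus found at 3 of the 7 Y complex genes that the symbol rule took in (interval 9.90% to 81.6%). NUP98 was counted apart from these. Over all coding genes, 13.4% had both.

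Upstream sequences that lay under both the PRMT6 and the PARP1 peak are shown for the NUP98, TPR, NUP107, NUP85 and SEH1L genes, because these are bases near the start sites that the peaks of both proteins share. They were taken from the RefSeq promoter table of GRCh38.p14 and run 5′ to 3′ on the gene's strand, ending at the last base before the 5′ end of the record, except for NUP85, where both peaks ended earlier and the sequence stops 79 bp upstream. That table begins 250 bp upstream, so at NUP98, TPR, NUP107 and NUP85 the stretch shared by the peaks extends beyond the bases shown. At NUP98, TPR, NUP107 and SEH1L the shared stretch also continues past the 5′ end, where no bases are shown. Capitals mark matches, on either strand, to any of the short motifs listed with the promoter features further on. NUP98 is given on chr11:3797555-3797804 (minus strand), TPR on chr1:186375254-186375503 (minus strand), NUP107 on chr12:68686728-68686977 (plus strand), NUP85 on chr17:75205429-75205600 (plus strand) and SEH1L on chr18:12947913-12948010 (plus strand).
NUP98: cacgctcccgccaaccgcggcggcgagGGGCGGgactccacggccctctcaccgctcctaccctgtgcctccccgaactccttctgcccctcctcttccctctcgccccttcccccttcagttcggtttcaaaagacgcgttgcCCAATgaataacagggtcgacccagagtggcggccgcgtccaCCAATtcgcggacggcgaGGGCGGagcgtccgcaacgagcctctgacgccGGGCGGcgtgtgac
TPR: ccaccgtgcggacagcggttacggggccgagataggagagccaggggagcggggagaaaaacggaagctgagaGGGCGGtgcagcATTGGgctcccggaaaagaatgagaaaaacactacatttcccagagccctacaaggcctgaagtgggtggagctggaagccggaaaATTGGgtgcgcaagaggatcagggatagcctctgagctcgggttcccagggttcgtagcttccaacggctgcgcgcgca
NUP107: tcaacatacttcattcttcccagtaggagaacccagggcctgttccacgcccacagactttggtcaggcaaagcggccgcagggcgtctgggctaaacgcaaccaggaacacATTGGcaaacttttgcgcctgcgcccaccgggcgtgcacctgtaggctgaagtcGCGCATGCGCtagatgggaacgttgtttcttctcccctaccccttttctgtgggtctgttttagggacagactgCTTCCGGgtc
NUP85: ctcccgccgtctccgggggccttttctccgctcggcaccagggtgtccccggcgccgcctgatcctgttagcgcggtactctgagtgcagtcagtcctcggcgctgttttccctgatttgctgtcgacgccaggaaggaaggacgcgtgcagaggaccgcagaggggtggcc
SEH1L: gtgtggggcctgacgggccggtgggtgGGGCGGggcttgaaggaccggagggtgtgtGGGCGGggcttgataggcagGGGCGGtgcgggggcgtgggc

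The NUP98 stretch held GGGCGG at 3 positions and CCAAT at 2, and had 30 CpG dinucleotides in 250 bases. In TPR, CCAAT was found on the reverse strand 165 and 79 bp upstream, and GGGCGG 177 bp upstream. NUP107 held CCAAT on the reverse strand 138 bp upstream and CCGGAAG on the reverse strand 10 bp upstream. It also held GCATGCGC on both strands in overlapping positions, with first bases 84 and 82 bp upstream. SEH1L held GGGCGG at 3 positions within 98 bases, with 76.5% G and C. No motif of the list was present in the 172 bases of NUP85.

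The inner ring joins the outer rings to the membrane and the channel. Of its 5 genes, 0 had promoter peaks in both lists (interval 0% to 52.2%), where 13.4% of all coding genes did. NUP205, a large scaffold protein, had a PRMT6 peak only (chromosome 7, 135557922 to 135558210, score 5.51, rank 4311). NUP155, which contacts the membrane side of the ring, had a PARP1 peak only (chromosome 5, 37371105 to 37371403, score 13.08, rank 989). This was the highest-scoring of the members' peaks without a partner in the other list, and the nearest PRMT6 peak lay 161765 bp upstream. NUP188, NUP35 and NUP93 had no promoter peak, nor had NUP210, the membrane nucleoporin.

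The central channel is formed by NUP62, NUP54 and NUP58, nucleoporins with phenylalanine-glycine repeats. PARP1 promoter peaks were found at all 3 genes (interval 29.2% to 100%), where 22.5% of all coding genes had one. PRMT6 peaks were found at NUP62 and NUP54 (interval 9.43% to 99.2%), where 18.3% of all coding genes had one. At NUP62 the peaks (chromosome 19, 49929780 to 49930105 for PRMT6, score 6.42, rank 3143, and 49929829 to 49930149 for PARP1, score 9.31, rank 2466) both lay upstream of the 5′ end, with the nearest edges 276 and 325 bp away. At NUP54 the PRMT6 peak (chromosome 4, 76147841 to 76148192, score 6.82, rank 2674) began 205 bp downstream of the 5′ end, while the PARP1 peak (76148464 to 76148664, score 6.92, rank 4970) ended 67 bp upstream. NUP54 was the only member with peaks of both lists that shared no base. At NUP58 the PARP1 peak (chromosome 13, 25301421 to 25301621, score 5.25, rank 8636) came to within 4 bp of the 5′ end from the upstream side.

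On the cytoplasmic side, RANBP2, the large filament protein with SUMO ligase activity, had a PRMT6 peak (chromosome 2, 108719171 to 108719459, score 5.62, rank 4084) and a PARP1 peak (108719239 to 108719498, score 6.87, rank 5070). NUP88 also had both, a PRMT6 peak (chromosome 17, 5419794 to 5420213, score 5.37, rank 4600) and a PARP1 peak (5419794 to 5420023, score 4.32, rank 10414), the latter being the lowest-ranked promoter peak of the members in the PARP1 list. NUP42 had a PRMT6 peak only (chromosome 7, 23181871 to 23182159, score 4.48, rank 6841). AAAS, which encodes ALADIN, had a PARP1 peak only (chromosome 12, 53321289 to 53321489, score 4.66, rank 9685). NUP214 had none. In the basket, NUP153 had a PARP1 peak only (chromosome 6, 17706681 to 17707039, score 12.54, rank 1116), and NUP50 had none. The paralogs NUP210L and NUP62CL had no promoter peak.

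Importin alpha proteins bind cargo with a classical nuclear localization signal and pair with KPNB1. Of their 7 genes, 4 had a PARP1 promoter peak (interval 18.4% to 90.1%), where 22.5% of all coding genes had one. A PRMT6 peak was also present at 2 of these (interval for both 3.67% to 71.0%), where 13.4% of all coding genes had both. At KPNA2 the PRMT6 peak (chromosome 17, 68035386 to 68035674) scored 4.50 at rank 6748 and the PARP1 peak (68035401 to 68035805) scored 7.21 at rank 4535. At KPNA3 the PRMT6 peak (chromosome 13, 49792772 to 49793135) scored 6.61 at rank 2907 and the PARP1 peak (49792707 to 49793116) scored 6.35 at rank 6014. KPNA1 (chromosome 3, 122514706 to 122514906, score 6.65, rank 5390) and KPNA4 (chromosome 3, 160565582 to 160565835, score 6.22, rank 6286) had PARP1 peaks only. KPNA5, KPNA6 and KPNA7 had none.

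The other import receptors carry cargo without an adaptor. Among these 10 genes, IPO13 alone had peaks of both lists, with a PRMT6 peak (chromosome 1, 43946513 to 43946801, score 5.04, rank 5567) and a PARP1 peak (43946628 to 43946915, score 8.47, rank 3109). This share (10.0%, 0.253% to 44.5%) was near the 13.4% of all coding genes. IPO11 (chromosome 5, 62412536 to 62412833, score 5.75, rank 3935) and IPO7 (chromosome 11, 9384514 to 9385110, score 4.88, rank 5621) had PRMT6 peaks only. TNPO1, the receptor of many RNA-binding proteins, had a PARP1 peak only (chromosome 5, 72816568 to 72816778, score 5.51, rank 7686). IPO4, IPO5, IPO8, IPO9, TNPO2 and TNPO3 had none.

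Of the 5 exportin genes that the symbol rule took in, XPO1 and XPO6 had peaks of both lists (interval 5.27% to 85.3%). Over all coding genes, 13.4% had both. XPO6, the exporter of actin, had a PRMT6 peak (chromosome 16, 28211908 to 28212269, score 6.22, rank 3341) and a PARP1 peak (28211853 to 28212181, score 7.21, rank 4535). XPO5, the exporter of microRNA precursors, had a PRMT6 peak only (chromosome 6, 43576018 to 43576373, score 6.33, rank 3218). XPO4 and XPO7 had none. RAN had none either, and its nearest peaks lay 121952 bp (PRMT6) and 121947 bp (PARP1) downstream.

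Genes with peaks in both lists had a higher median percentile than those with a peak in a single list, among the members as among all genes. The median PRMT6 percentile was 70.2 at the 15 members with both and 51.1 at the 5 with PRMT6 only, where all coding genes gave 78.5 and 48.9. The median PARP1 percentile was 73.2 at the 15 members and 42.3 at the 8 with PARP1 only, where all coding genes gave 74.6 and 42.2. Over all members with a promoter peak, the medians were 64.7 for PRMT6 and 61.0 for PARP1, where all genes with a promoter peak gave 71.8 and 62.1. The members' peaks therefore had no higher median than promoter peaks in general in either list. In the top 10% of their list stood 4 PRMT6 peaks of members (20.0%, against 19.8% of all genes with such a peak) and 6 PARP1 peaks (26.1%, against 14.9%).

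**Figure D2:**
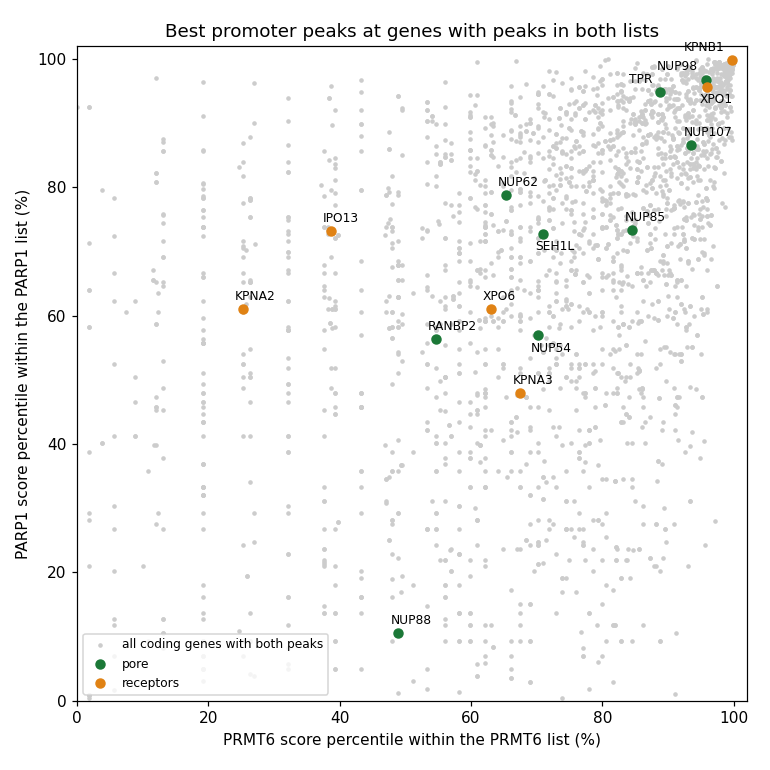
PRMT6 percentile (x axis, %) against PARP1 percentile (y axis, %) of the best promoter peaks at 2637 coding genes with peaks in both lists (gray), with 9 pore genes in green and 6 receptor genes in orange. KPNB1, NUP98, XPO1, TPR and NUP107 sit in the upper right corner, and NUP88 sits low in the PARP1 list at percentile 10.5.

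At the members with both peaks, the percentile was higher in the PARP1 list at 8 genes and in the PRMT6 list at 7, where all genes with both were split 1137 to 1500. The largest gap in favor of PRMT6 was seen at NUP88 (48.9 against 10.5), and the largest in favor of PARP1 at KPNA2 (25.2 against 61.0) and IPO13 (38.6 against 73.2). Percentiles depend on the composition of each list, so they order genes within a list and do not measure how much protein was bound.

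The members' peaks lay close to the start sites. The nearest edge of a PRMT6 promoter peak was at most 276 bp from the 5′ end in 20 of 20 genes, and that of a PARP1 peak at most 325 bp in 23 of 23, both maxima being NUP62. Over all coding genes with a promoter peak, 89.0% (PRMT6) and 88.4% (PARP1) lay within 1 kb, against 100% of the members' in both lists. The median distance from the 5′ end to the peak centre was 164 bp at members and 186 bp at all such genes for PRMT6. For PARP1 these medians were 148 bp and 182 bp. Outside the 3 kb window, the nearest were 2 PRMT6 peaks and the PARP1 peak 8688 bp upstream of IPO11. The PRMT6 peaks lay inside the records of NUP35 and NUP210L, 7184 and 7274 bp downstream of their 5′ ends. No member peak lay near the edge of the window. The centre of the peak was upstream of the 5′ end at 16 of 20 members for PRMT6 (80.0%, against 68.6% of all genes with such a peak) and at 17 of 23 for PARP1 (73.9%, against 68.5%). The 5′ end itself was covered by the PRMT6 peak at 11 of 20 members (55.0%, against 55.2% of all genes with such a peak) and by the PARP1 peak at 12 of 23 (52.2%, against 44.7%).

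**Figure D3:**
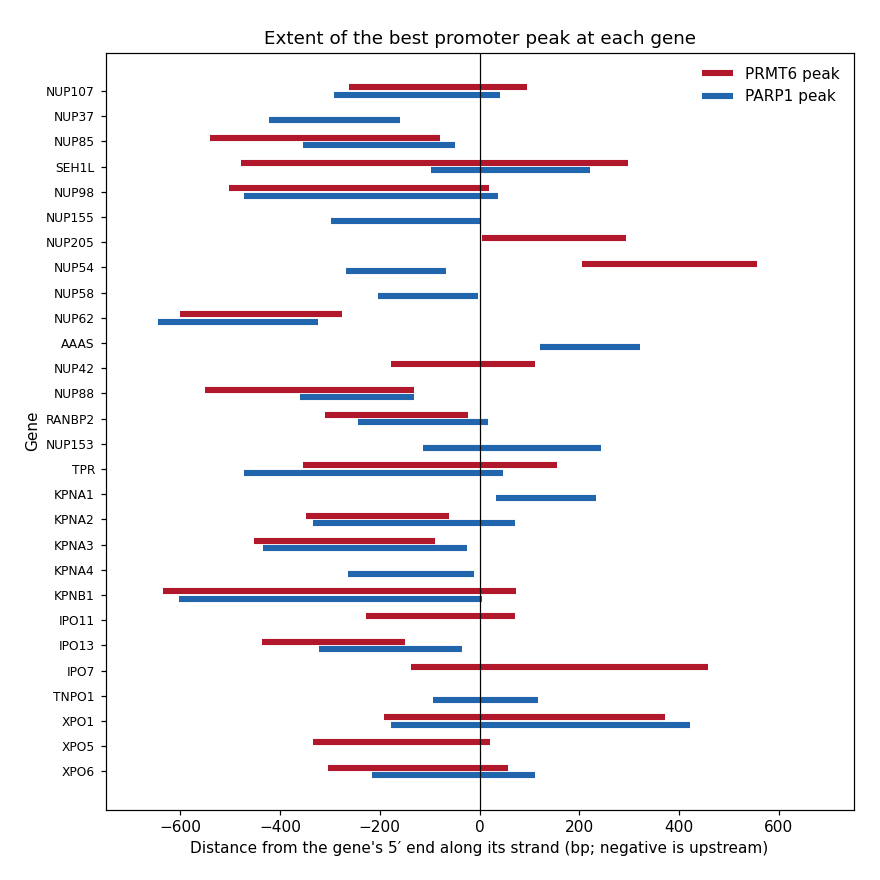
Extent of the best PRMT6 (red) and PARP1 (blue) promoter peak at the 28 genes with at least 1, in bp from the 5′ end along the gene's strand with negative values upstream. At KPNB1, NUP98 and XPO1 the peaks of both lists nearly coincide, while at NUP54 they lie on opposite sides of the 5′ end.

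PRMT6 and PARP1 peaks overlapped at 14 of the 15 members with both (93.3%, against 96.3% of all such genes). The shared stretch ran from 173 bp at IPO13 to 607 bp at KPNB1, with a median of 289 bp. It covered a median of 81.6% of the PRMT6 peak and 88.4% of the PARP1 peak, where all genes gave 72.1% and 94.4%. The narrowest PRMT6 peaks of the list were 288 bp wide and the narrowest PARP1 peaks 200 bp. The PRMT6 peaks at NUP42, NUP205, RANBP2, KPNA2 and IPO13 and the PARP1 peaks at NUP54, NUP58, AAAS and KPNA1 had exactly this width (25.0% and 17.4% of the members' peaks, against 27.6% and 18.0% of the best promoter peaks of all genes).

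Some of these peaks lie between 2 start sites. The 5′ end of another coding gene lay within 1 kb at 8 of 27 pore genes and at 1 of 23 receptor genes, where 15.1% of all coding genes had such a neighbor. Over all coding genes, 34.2% of those with a neighbor had a PRMT6 promoter peak and 15.4% of those without, and the PARP1 shares were 42.4% and 18.9%. At NUP98 both peaks covered the start of NUP98 and that of PGAP2, 166 bp upstream. At XPO5 the PRMT6 peak covered its own start and that of POLH, 147 bp upstream. At NUP88 neither peak reached the start of NUP88, and the PRMT6 peak covered that of RPAIN, 520 bp upstream. The peaks at TPR covered its own start and not that of ODR4, 585 bp upstream. At NUP37 the PARP1 peak lay beyond the start of PARPBP, 69 bp upstream, and covered neither start. NUP62 shares its annotated 5′ end with IL4I1, and ATF5 starts 598 bp downstream of it, while both peaks lay upstream. NUP43, NUP188 and NUP62CL, whose neighbors are PCMT1, DOLK and DNAAF6, had no promoter peak. Without the members that have such a neighbor, 7 of 19 pore genes had a PRMT6 promoter peak, 9 a PARP1 promoter peak and 5 both, and of 22 receptor genes 8, 9 and 6 did. Over all coding genes without such a neighbor, these shares were 15.4%, 18.9% and 10.9%. Divergent noncoding genes start within the peaks of both lists at KPNB1 and at NUP107, where LOC100507250 begins 119 bp upstream. At NUP54 the PARP1 peak covered the start of the divergent noncoding gene LOC124900718, 152 bp upstream, and not that of NUP54. The PRMT6 peak at IPO13 covered the start of LOC101929609, 351 bp upstream, and not that of IPO13.

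The base composition of the members was examined in the 300 bases around the start site (250 upstream and 50 downstream) in the RefSeq promoter table, which held 45 of the 51 genes. The table start nearest the record's 5′ end was used. It was that same end at 42 of the 45 members and at 13819 of 15842 coding genes, and another position at the rest. The CpG ratio, the observed over the expected number of CpG dinucleotides, had a median of 0.89 in the members and 0.76 over 15842 coding genes. It was at least 0.6 at 42 of 45 members (93.3%) and at 65.6% of all genes. Among all coding genes with a ratio of at least 0.6, 25.9% had a PRMT6 promoter peak, 31.4% a PARP1 promoter peak and 19.3% both. Below this ratio the shares of all coding genes were 6.97%, 9.31% and 4.62%. Among the 42 members with a ratio of at least 0.6 these peaks were found at 19 (45.2%, 29.8% to 61.3%), 21 (interval 34.2% to 65.8%) and 14 (33.3%, 19.6% to 49.5%). In this class too the members' shares were above the genome share, by a smaller ratio in each count than over all coding genes. The set was put forward with these peaks already known, so the intervals are descriptive and enrichment was not tested.

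**Figure D4:**
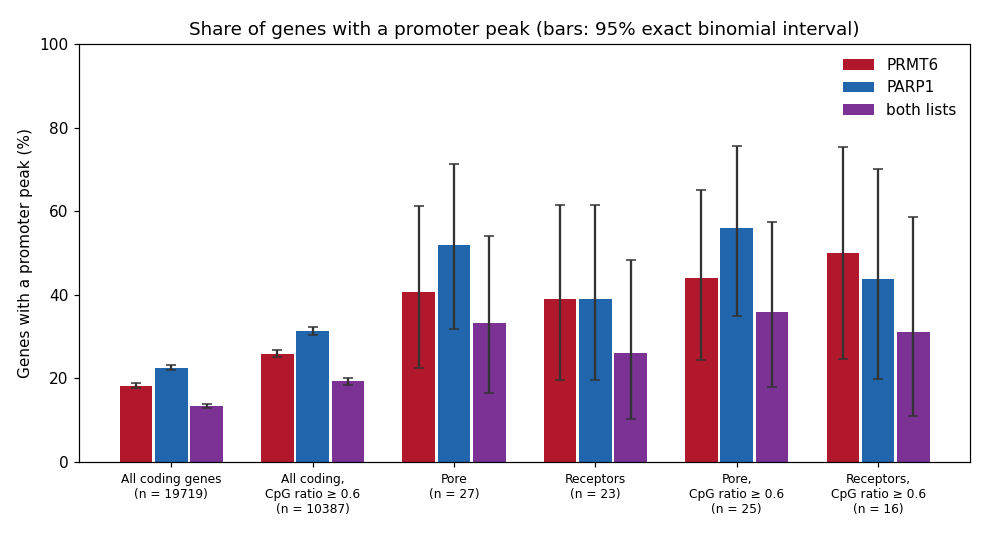
Share of genes (%) with a PRMT6 promoter peak, a PARP1 promoter peak or both, for all coding genes, pore genes and receptor genes, in full and with a CpG ratio of at least 0.6. Error bars are 95% exact binomial intervals, and those of pore and receptors overlap throughout.

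The 3 members with a lower ratio, NUP210L (0.35), TNPO2 (0.49) and IPO5 (0.21), had no promoter peak. Over the 45 members, the median ratio was 0.97 at the 26 with a peak in either list and 0.85 at the 19 without, where all coding genes gave 0.85 and 0.69. Among the 42 members with a ratio of at least 0.6, it was 0.84 at 14 with both peaks, 1.05 at 5 with PRMT6 only, 1.00 at 7 with PARP1 only and 0.87 at 16 without any, and the ranges of the classes overlapped. RAN had the highest ratio of the 45 members, 1.29, and no promoter peak in either list.

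**Figure D5:**
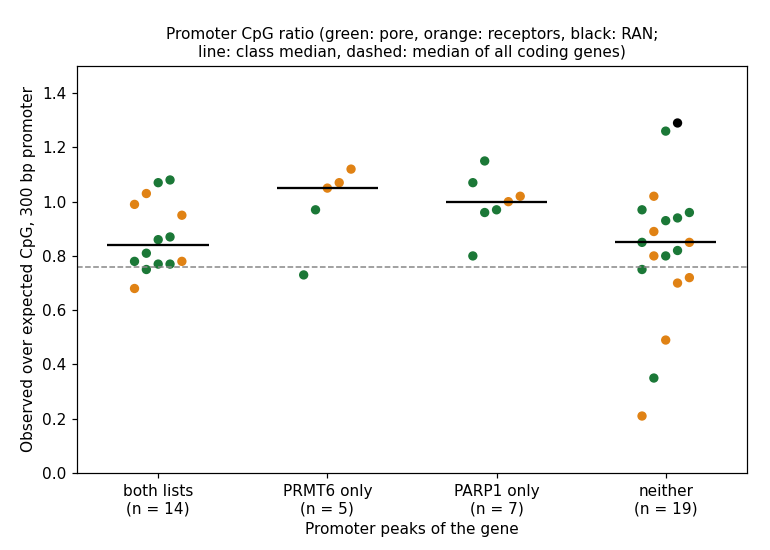
Observed over expected CpG in the 300 bp promoter of 45 members, by whether they have promoter peaks in both lists, in the PRMT6 list only, in the PARP1 list only or in neither. Black lines are class medians, and the dashed line is the median of all coding genes, 0.76.

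A set of 9 short motifs was searched in the same 300 bases on both strands. The CCAAT box was present at 22 of 45 members (48.9%) and 36.4% of all coding promoters. The ETS-type word CCGGAAG was present at 12 members (26.7%) and 14.2% of all promoters. The NRF1-type word GCATGCGC was found at IPO11, NUP107, NUP50 and NUP62 (8.89%, against 4.28%). The YY1-type word AAGATGGC was found at NUP188, NUP205, NUP88, RAN and XPO6 (11.1%, against 3.86%). The E-box CACGTG was present at 7 members (15.6%, against 8.82%), and the word ACTACAA at 3 (6.67%, against 3.13%). The GC box GGGCGG was present at 23 members (51.1%, against 58.3%), and the word TATAAA at IPO11 and KPNA6 (4.44%, against 9.75%). The E2F-type word TTTCCCGC was present at 0 members, where 2.17% of all promoters held it. Between the 26 members with a promoter peak in either list and the 19 without, CCAAT was present at 12 (46.2%) and 10 (52.6%), where all coding genes with and without such a peak gave 43.9% and 33.3%. CCGGAAG was present at 7 (26.9%) and 5 (26.3%), where all coding genes gave 20.6% and 11.5%. GGGCGG was present at 13 and 10. CACGTG was present at 2 (7.69%) and 5 (26.3%), where all coding genes with and without a peak gave 10.2% and 8.25%. Over all coding genes GGGCGG was present at 73.1% of the promoters with a peak in either list and 52.3% of those without. These matches are descriptions of the letters in the window.

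Beyond the promoters, peaks inside the gene record were found at 13 of the 50 members other than RANBP2, with PRMT6 peaks at 7, PARP1 peaks at 9 and both at 3. Over all coding genes without RANBP2, 20.4% had such a peak in either list, 13.2% in the PRMT6 list, 14.6% in the PARP1 list and 7.41% in both. The records of these members were longer, with a median of 63539 bp against 24697 bp. RANBP2 was left out because its record of 1122820 bp contains the starts of 6 other coding genes. At IPO5, which has no promoter peak, a PRMT6 peak (chromosome 13, 97976054 to 97976418, rank 2746) and a PARP1 peak (97975997 to 97976271, rank 8920) overlapped, starting 22379 and 22322 bp downstream of its 5′ end. At KPNA7, which also has none, a PRMT6 peak (chromosome 7, 99207905 to 99208198, rank 2907) and a PARP1 peak (99208090 to 99208325, rank 2297) overlapped as well. At KPNA6 the peaks of both lists were separate, at ranks 4835 and 4889.

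Other genes of the pathway were examined as well, chosen with earlier results of these data known, so their counts are a description too. Of 20 such genes outside the symbol rule, 9 had a PRMT6 promoter peak, 9 a PARP1 promoter peak and 6 both, where all coding genes gave 18.3%, 22.5% and 13.4%. Among those with both were AHCTF1, which seeds pore assembly on chromatin, RCC1, RANBP1 and NUTF2 of the Ran cycle, and the mRNA export receptor NXF1. NDC1, RANBP3 and DDX19A had a PRMT6 peak only, and XPOT, NXT1 and DDX19B had a PARP1 peak only. SEC13, POM121, POM121C, GLE1, RAE1, CSE1L, SNUPN and RANGAP1 had none. By role, promoter peaks of both lists were present at 1 of 7 other pore genes, 3 of 5 genes of the Ran cycle and 2 of 8 other transport factors, numbers too small to set against the 13.4% of all coding genes.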

How the data were processed

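Peaks of PRMT6 and PARP1 in MDA-MB-231 cells were taken from 2 deposited lists, 1 library each. The study's methods describe CUT&Tag, while the labels describe ligation of adaptors to immunoprecipitated DNA. The submitters' processing notes name CASAVA 1.4, Bowtie 0.12.8, MACS and MACS2 and the build hg19. Thresholds and any control library are not given in the sources used here. Each peak of the deposited lists has a score, read as −log10 of a p-value from its range, and whether it was adjusted is not stated.

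The positions disagree with hg19: 55 PRMT6 and 61 PARP1 peaks end beyond GRCh37 chromosomes, and 30.1% and 29.5% lie within 1 kb of a coding 5′ end of GRCh38, against 4.04% and 3.94% for GRCh37. RefSeq genes of GRCh38.p14 were therefore used. Strand came from the RefSeq promoter table (15843 genes) or else from the GENCODE gene of the same name, leaving 337 of 20056 coding genes out. Starts and ends are as listed. Whether starts count from 0 or 1 is not stated.

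Overlap meant 1 shared bp, computed in Python 3.11.15 with numpy 2.4.6, pandas 2.3.3 and scipy 1.17.1, and tested on simulated data. Members, roles, motifs and other pathway genes were chosen with earlier results of these data known. Every member is named. Positions are given for the 8 members with the best mean percentile in both lists, those with a peak in 1 list only, KPNB1, RAN, XPO1, NUP98, RANBP2 and TPR, and those with peaks nearest the window's edge. Positions of NUP54, NUP88, XPO6, KPNA3, KPNA2 and IPO13 and of peaks inside genes were added after their values were seen. Sequences are given for those of the 8 where the promoter table held at least 30 bases upstream of the record's 5′ end under both peaks. At XPO1 the table starts downstream of that end, at NUP62 the peaks lay beyond the table, and KPNB1 was not matched. One other pathway gene is counted and not reported here by name. No test between libraries was made. Alternatives covered the window, the score, list length, peak width, members, neighbors, overlap and start sites.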

Additional observations from a re-analysis of the deposited data

How the results depend on the processing

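Of 53 alternatives, 46 left the count within 1.5 times or the share within its interval, and 7 moved it. Windows of 1 kb on either side, or of 2 kb upstream to 500 bp downstream, gave the same counts as 3 kb. In the higher-scoring 50% of each list, receptor genes with both peaks numbered 3 in place of 6, while pore genes with both numbered 8 in place of 9. Without members that have another coding 5′ end within 1 kb, which leaves fewer genes by construction, pore genes numbered 7 (PRMT6), 9 (PARP1) and 5 (both) of 19. Of all coding genes without such a neighbor, 15.4%, 18.9% and 10.9% had these peaks. Restricting all coding genes to promoters with a CpG ratio of at least 0.6 raised their shares to 25.9%, 31.4% and 19.3%. With all start sites of the RefSeq promoter table, a setting added once the data had been seen, NUP35 gained a PRMT6 promoter peak and no other member gained one. With 1 library per antibody, neither replicate spread nor read depth could be assessed. No paired analysis was possible because there is only 1 sample for either antibody.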
